A study of Homo sapiens with 4 samples.

Results

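The genes described here are *PLAU*, *PLAT*, *PLAUR*, *SERPINE2*, *SERPINB2* and *SERPINI1*, which encode 2 plasminogen activators, the receptor of one of them, and 3 serpin inhibitors. They were taken by name, and each matched a single row among the 31681 genes of the deposited table. The RNA came from BT549, an established human TNBC (triple-negative breast cancer) line, whose cells flow cytometry had sorted on the surface protein neuropilin 2 into NRP2-high and NRP2-low populations. There were 2 libraries of NRP2-high cells and 2 of NRP2-low cells, with no treatment, dose or time named for either, and the sorted populations were compared with each other. The sort gates are not described in the sources used here, nor do they say whether libraries of the same population stem from independent cultures. The p-values thus measure only how far these libraries differ, a spread that may be technical. That spread was unequal for counts scaled by library totals only. The chi-square per degree of freedom over genes was 10.6 between the NRP2-high libraries and 1.60 between the NRP2-low ones. The fit scales the libraries otherwise and pools the spread. All cells were of a single line, and in such bulk libraries more RNA per cell and more cells that make it cannot be told apart.

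Plasminogen activators are serine proteases that cut plasminogen, an inactive protein of plasma and tissue fluid, into plasmin, which dissolves fibrin and cleaves matrix proteins. Urokinase (*PLAU*) does so mainly at the cell surface, held by the urokinase receptor (*PLAUR*), whereas tissue-type activator (*PLAT*) is best known for dissolving clots and for its roles in the nervous system. Serpins block these proteases as suicide substrates, and the trapped complexes are taken up by endocytic receptors of the LDL receptor family. High urokinase is a long-known marker of poor outcome in breast cancer.

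The libraries held 18727299 and 20585102 counted fragments from NRP2-high cells and 19183827 and 18165923 from NRP2-low cells, and these depths limit each value below. At these depths 3 counts, taken as the most that a count of 0 allows, correspond to 0.151 to 0.163 CPM (counts scaled to a common TMM-adjusted library size), a limit that covers counting error only. *NRP2* itself had 2588 and 2839 counts in NRP2-high cells against 195 and 166 in NRP2-low cells, which fits the labels. Mitochondrially encoded genes accounted for 6.92% and 9.16% of NRP2-high counts and 5.57% and 5.85% in NRP2-low cells. Of 6 mesenchymal markers, 2 were higher (*FN1* at a log2 fold change of 1.85 and *SPARC* at 0.20), *CDH2* was lower at -0.59, and *VIM*, *ZEB1* and *ZEB2* did not pass. Their summed level was 6035 to 6321 CPM in NRP2-high cells against 3130 to 3133 CPM in NRP2-low cells. Most of that gap was *FN1* alone, at 3941 and 4091 CPM in NRP2-high cells against 1108 and 1124 CPM in NRP2-low cells. The luminal markers summed to 146 to 151 CPM in NRP2-high cells against 93.8 to 95.5 CPM in NRP2-low cells. Of these, *GATA3* was 2.33-fold higher, *ERBB2* did not pass at a log2 fold change of -0.12, and *FOXA1* had at most 2 counts in any library. The rise of the sum thus came from *GATA3* and not from the luminal markers as a group. *EPCAM* and *CDH1* had at most 5 counts in any library. Summed over 7 epithelial markers, the level was 14.3 to 16.5 CPM in NRP2-high cells against 52.9 to 53.8 CPM in NRP2-low cells, with 1 marker higher and 4 lower of the 5 tested. Summed immune markers were at 4.46 to 4.80 CPM in NRP2-high cells against 4.78 to 5.12 CPM in NRP2-low cells, and endothelial markers at 0.544 to 0.825 against 0.1004 to 0.106 CPM. The epithelial keratin *KRT5* had 34 and 36 counts in NRP2-high cells against 896 and 867 in NRP2-low cells, and *KRT19* 205 and 266 against 6 and 7. The listed markers *ESR1*, *PGR*, *CD3E* and *CDH5* were not analysed here. Of the others none was at 0 in all libraries, and the part of these markers in the results below was not tested.

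Of the 6 genes, 5 were abundant enough for edgeR's count filter and were tested, and *SERPINB2* was too rare. In NRP2-high cells the activator *PLAT* and the receptor *PLAUR* were higher, while the activator *PLAU* and the inhibitors *SERPINE2* and *SERPINI1* were lower. All 5 passed an adjusted p of 0.05 (edgeR's quasi-likelihood test, Benjamini-Hochberg over 15083 genes), but 56.5% of all tested genes passed it too, 28.9% as higher and 27.7% as lower, so a call alone sets none of them apart. Changes over 2-fold were rarer, with 2 of the 5 genes past that size (*SERPINE2* and *SERPINI1*, both lower) against 16.3% of all tested genes. The CPM of the 2 populations did not overlap for any of the 5, as for 78.2% of all tested genes. Only *PLAT*, *SERPINE2* and *SERPINI1* kept their call in each of the 16 alternative fits or units, and the calls of *PLAU* and *PLAUR* did not.

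**Figure D1:**
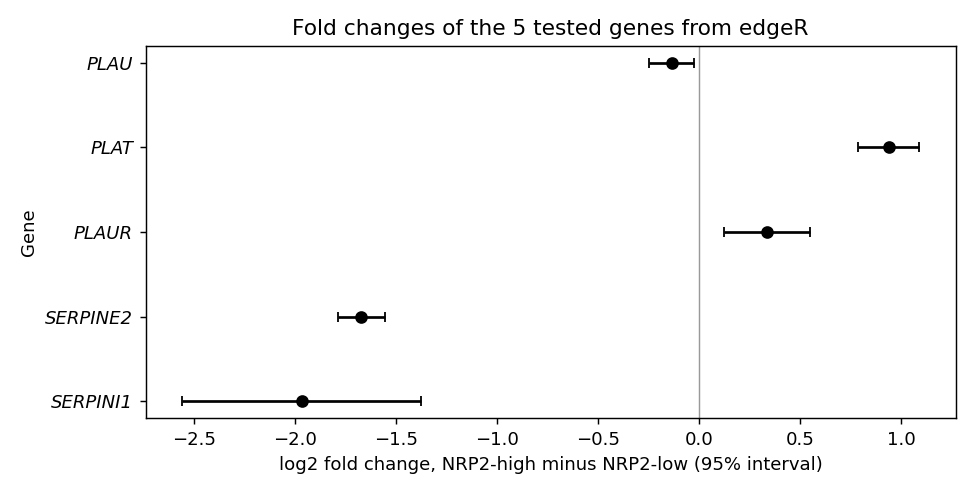
Log2 fold change of NRP2-high over NRP2-low cells (x axis) for the 5 tested genes, with bars for the 95% interval from edgeR. *SERPINI1* (-1.97) and *SERPINE2* (-1.67) lie far to the left of 0 and *PLAT* (0.94) to its right, while the intervals of *PLAU* and *PLAUR* end close to 0.

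*PLAT* encodes tissue-type plasminogen activator (ENSG00000104368.17, minus strand of chromosome 8 of hg38, 42175233 to 42207565). NRP2-high libraries held 1413 and 1575 of its fragments, against 796 and 803 in NRP2-low libraries. Per length this was 40.4 and 38.5 TPM in NRP2-high cells and 22.2 and 23.7 TPM in NRP2-low cells. TPM are counts per deposited gene length, scaled to a common sum, and that length is not of a single transcript. Both NRP2-high libraries lay above both NRP2-low ones. The mean was 79.1 ± 3.06 CPM in NRP2-high cells and 41.3 ± 1.92 CPM in NRP2-low cells (SD, n = 2 each). The log2 fold change was 0.94 ± 0.07 (standard error, edgeR adjusted p = 6.84e-07), a 1.91-fold increase, and 18.5% of tested genes had a larger change in either direction. Over the alternatives it ran from 0.74 to 0.98, and the call was kept in each.

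*PLAU* encodes urokinase (ENSG00000122861.15, plus strand of chromosome 10, 73909177 to 73917496). It was the most abundant of the 6 genes per length, at 167 and 147 TPM in NRP2-high cells and 190 and 192 TPM in NRP2-low cells. Its counts were 2597 and 2673 in NRP2-high libraries and 3040 and 2901 in NRP2-low libraries, so all 4 libraries lay close together. The means of 140 ± 2.46 CPM in NRP2-high cells and 153 ± 1.10 CPM in NRP2-low cells (SD, n = 2 each) differed by a log2 fold change of -0.14 (standard error 0.05, 95% interval -0.25 to -0.02, adjusted p = 0.0403 from edgeR). A change larger than this was seen in 80.1% of tested genes. The call was lost in DESeq2 (adjusted p = 0.198), with no filter on low counts (0.10), and without NRP2-low replicate 1 (0.208) or NRP2-low replicate 2 (0.292), so the small decrease of *PLAU* is not firm. The gene *C10orf55* overlaps *PLAU* on the opposite strand. It had 44 and 55 counts in NRP2-high cells against 46 and 22 in NRP2-low cells, and how strand was used in the counting is not given in the sources used here.

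*PLAUR* encodes the urokinase receptor, a protein held on the cell surface by a glycolipid (GPI) anchor (ENSG00000011422.11, minus strand of chromosome 19, 43646095 to 43670166). Its counts were 460 and 546 in NRP2-high cells against 440 and 378 in NRP2-low cells, or 19.5 and 19.8 TPM against 18.2 and 16.5 TPM. The populations did not overlap, but the gap between them was small. At 26.6 ± 2.21 CPM in NRP2-high cells and 21.1 ± 1.41 CPM in NRP2-low cells (SD, n = 2 each), its log2 fold change was 0.33 (standard error 0.10, 95% interval 0.12 to 0.55, adjusted p = 0.0122 from edgeR). The increase of 1.26-fold lost its call in DESeq2 (adjusted p = 0.0644), without NRP2-low replicate 2 (0.141) and in TPM or FPKM (0.0986 to 0.252). In log2(TPM + 1) the median of all tested genes stood at -0.14, against -0.0066 with TMM scaling, and relative to that shift *PLAUR* was at 0.31. On the same relative scale *PLAT* was at 0.89, *PLAU* at -0.15, *SERPINE2* at -1.67 and *SERPINI1* at -1.33.

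The sequence before the start of *PLAUR* is shown because it holds a match to the AP-1 motif, the site of FOS and JUN proteins, whose genes are described further on. The motif searched was TGANTCA on both strands, and it was found in 6.57% of the 35116 RefSeq windows that cover the 250 bases before a gene start (GRCh38.p14). In *PLAUR* it lies before the RefSeq start, within chr19:43670338-43670367 on the minus strand, 5′ to 3′ with the match in capitals. The stretch overlaps a *PLAUR* exon of GENCODE v44, so it is not wholly outside the annotated transcripts.
PLAUR: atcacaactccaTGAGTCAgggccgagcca
RefSeq gives *PLAU* 2 start regions, and neither holds the AP-1 motif in the 250 bases before it, while the one at 73910882 to 73911131 holds 3 GC boxes (GGGCGG, found in 42.6% of all windows). Both overlap exons of *PLAU* and *C10orf55*. A match describes letters and not binding.

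*SERPINE2* encodes protease nexin 1, a secreted serpin that inhibits urokinase, tissue-type activator and thrombin (ENSG00000135919.12, minus strand of chromosome 2, 223975112 to 224039288). It had the largest change in counted fragments of the 6 genes, with 2369 and 2645 counts in NRP2-high cells against 8389 and 7982 in NRP2-low cells. Per length, the NRP2-high libraries were at 50.5 and 48.1 TPM and the NRP2-low libraries at 174 and 175 TPM. The replicates of each population lay close together and the populations far apart. The means were 133 ± 5.29 CPM in NRP2-high cells and 423 ± 2.16 CPM in NRP2-low cells (SD, n = 2 each). The log2 fold change of -1.67 ± 0.05 (standard error, edgeR adjusted p = 1e-09) was a 3.19-fold decrease. It ran from -1.82 to -1.63 over the alternatives, the call was kept in each, and 7.90% of tested genes had a larger change.

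RefSeq gives *SERPINE2* 2 start regions, and the counts per gene do not say which was used. The outer region, from 224038641 to 224038890, holds 2 GC boxes and no CCAAT box in the 250 bases before its start, and overlaps a *SERPINE2* exon of GENCODE v44. The other lies inside the gene, overlaps no exon of GENCODE v44, and is shown because it holds 7 CCAAT boxes on the 2 strands, a motif present in 32.0% of all windows. At least as many were found in 0.0199% of them, a share looked up because the number was seen to be high. The region repeats itself, with near-identical letters around successive matches, so the matches are copies rather than independent sites. It lies at chr2:224031479-224031728 on the minus strand and is printed 5′ to 3′, with CCAAT (or ATTGG) and the single GC box GGGCGG in capitals.
SERPINE2: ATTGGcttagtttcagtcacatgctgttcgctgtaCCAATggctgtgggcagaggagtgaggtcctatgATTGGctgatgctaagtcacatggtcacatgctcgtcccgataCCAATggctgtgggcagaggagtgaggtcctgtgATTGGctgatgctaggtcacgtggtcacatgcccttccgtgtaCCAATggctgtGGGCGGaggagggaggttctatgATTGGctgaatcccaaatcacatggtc

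*SERPINI1* encodes neuroserpin, a serpin made mainly by neurons that inhibits tissue-type activator (ENSG00000163536.12, plus strand of chromosome 3, 167735243 to 167825568). It was rare in these cells, with 14 and 16 counts in NRP2-high libraries and 64 and 57 in NRP2-low libraries. Both NRP2-high libraries were well below both NRP2-low ones, at 1.10 and 1.07 TPM against 4.89 and 4.599 TPM. The means of 0.793 ± 0.0447 CPM in NRP2-high cells and 3.12 ± 0.130 CPM in NRP2-low cells (SD, n = 2 each) gave a log2 fold change of -1.97 (standard error 0.27, 95% interval -2.56 to -1.37, adjusted p = 9.02e-05 from edgeR), a 3.91-fold decrease. The call was kept in each alternative, and the value ran from -2.03 to -0.83. The smallest change was that in log2(FPKM + 1), a scale that understates the change of low genes.

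*SERPINI1* starts 303 bases from *PDCD10*, a gene on the opposite strand that encodes an adaptor protein of vascular junctions. *PDCD10* is given for its position and was chosen after its values were seen. It had 1159 and 1423 counts in NRP2-high cells against 1452 and 1376 in NRP2-low cells, overlapping ranges, with a log2 fold change of -0.10 (95% interval -0.26 to 0.07, adjusted p = 0.297 from edgeR). Its interval did not overlap that of *SERPINI1*, and the difference between the 2 genes was not tested. The 300 bases before *SERPINI1* (chr3:167734943-167735242, plus strand, hg38, 62.3% GC) overlap no exon of GENCODE v44. They hold 2 CCAAT and 2 GC boxes, in capitals, and no AP-1 motif or TATAAA. RefSeq places its *SERPINI1* start further into the gene, after the window from 167735471 to 167735720, in which none of the 4 motifs was found.
SERPINI1: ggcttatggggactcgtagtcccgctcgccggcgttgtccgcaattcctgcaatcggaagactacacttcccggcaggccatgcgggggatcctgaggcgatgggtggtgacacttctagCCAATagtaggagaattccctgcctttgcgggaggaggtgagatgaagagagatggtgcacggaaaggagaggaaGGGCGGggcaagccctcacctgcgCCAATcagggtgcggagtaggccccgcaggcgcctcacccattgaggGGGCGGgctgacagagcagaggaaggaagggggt

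*SERPINB2* encodes PAI-2, a serpin that inhibits urokinase and is mostly kept inside the cell (ENSG00000197632.8, plus strand of chromosome 18, 63871692 to 63903890). It had 3 and 3 counts in NRP2-high cells against 0 and 2 in NRP2-low cells, at or below the 3 counts that a count of 0 allows. The ratio of pooled counts over pooled effective library sizes was 3.08, and its exact 95% bounds (Clopper-Pearson, counting error only) were 0.550 and 31.2. No difference could thus be detected at such depth. The 250 bases before its RefSeq start hold 1 match to the AP-1 motif, as in *PLAUR*, and 1 to TATAAA, which 10.7% of all windows hold. The gene was left out of the test, and with no filter on low counts it did not pass (adjusted p = 0.533 from edgeR).

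**Figure D2:**
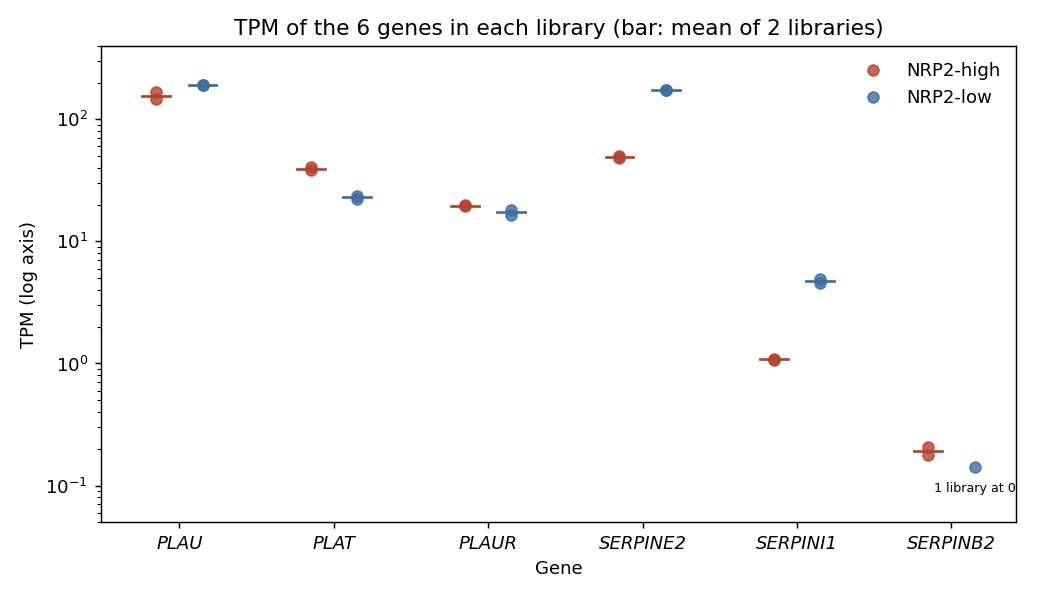
TPM on a log axis for each gene, with a point per library and a bar at the mean of 2 libraries, NRP2-high left of NRP2-low. *PLAU* is highest in both populations, *SERPINE2* differs most among the abundant genes, and *SERPINB2* lies at the level of a few counts, with 1 NRP2-low library at 0.

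Per length, the genes stood in the same order in both populations. In NRP2-high cells *PLAU* averaged 157 ± 14.2 TPM, *SERPINE2* 49.3 ± 1.65, *PLAT* 39.5 ± 1.36, *PLAUR* 19.7 ± 0.194, *SERPINI1* 1.08 ± 0.0183 and *SERPINB2* 0.192 ± 0.0213 TPM (SD, n = 2). In NRP2-low cells *PLAU* averaged 191 ± 1.15 TPM, *SERPINE2* 175 ± 0.685, *PLAT* 22.9 ± 1.04, *PLAUR* 17.4 ± 1.19, *SERPINI1* 4.74 ± 0.203 and *SERPINB2* 0.0710 ± 0.1004 TPM (SD, n = 2). No pair of neighbours in these orders overlapped between libraries. The orders depend on the gene lengths used, 8891 bases for *SERPINE2* and 2950 for *PLAU*. In counts, *SERPINE2* stood above *PLAU* in NRP2-low libraries (8389 and 7982 against 3040 and 2901). *PLAU* stood at 3.30 and 3.05 times *SERPINE2* in TPM in NRP2-high libraries, against 1.09 and 1.10 times in NRP2-low libraries, where these genes were near each other. *PLAT* stood at 0.801 and 0.800 times *SERPINE2* in NRP2-high libraries, against 0.127 and 0.135 times in NRP2-low libraries.

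**Figure D3:**
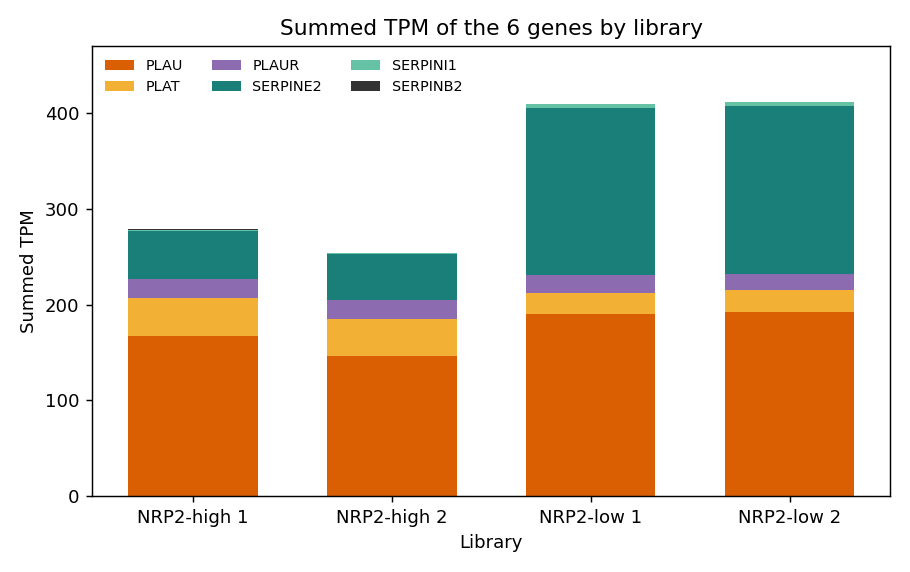
Summed TPM of the 6 genes (y axis) in each library (x axis), stacked by gene. The NRP2-high libraries reach 278 and 254 TPM and the NRP2-low libraries 410 and 412 TPM, and most of the gap is in the segment of *SERPINE2*.

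Among these 6 genes, the ratio of activator to serpin transcripts differed between the populations. The summed TPM of *PLAU* and *PLAT* was 207 and 185 in NRP2-high cells against 212 and 216 in NRP2-low cells. The summed TPM of *SERPINE2*, *SERPINB2* and *SERPINI1* was 51.8 and 49.4 in NRP2-high cells against 179 and 180 in NRP2-low cells. The activators therefore stood at 4.002 and 3.75 times the 3 serpins in NRP2-high libraries and at 1.19 and 1.198 times in NRP2-low libraries. The size of these ratios, and whether activators exceed serpins, depends on the gene lengths used. *PLAU* made up 59.9% and 57.6% of the summed TPM of the 6 genes in NRP2-high cells against 46.4% and 46.6% in NRP2-low cells, and *SERPINE2* 18.1% and 18.9% against 42.5% in each NRP2-low library. With 2 libraries a population, the smallest two-sided p an exact permutation test can give is 0.333, so these sums and ratios were not tested. The 3 serpins are not all the inhibitors of these proteases, and neither active protease nor plasmin was measured in the data used here.

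Plasminogen and the 10 further inhibitors listed were rare or undetected. Plasminogen (*PLG*) had 0 and 0 counts in NRP2-high libraries and 1 and 0 in NRP2-low libraries. The plasmin inhibitors *SERPINF2* and *A2M* had 0 and 1 counts each in NRP2-high libraries, against 2 and 2 for *SERPINF2* and 4 and 9 for *A2M* in NRP2-low libraries. The further inhibitors *SERPINA5*, *SERPINC1*, *CPB2*, *HRG*, *SERPINE3* and *SPINT2* had at most 5 counts in any library. *SPINT1*, an inhibitor of matriptase and hepsin, had 2 and 9 counts in NRP2-high cells against 1 and 1 in NRP2-low cells. *PZP* had no count. Each was too rare to be tested.

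Of 89 genes listed around this system, 81 had a row and 47 were tested, with 12 higher, 20 lower and 15 not passing. The share called was 68.1%, against 56.5% of all tested genes, and the median log2 fold change was -0.13, against -0.0066. Higher genes were 51.0% of all calls in edgeR and 35.9% to 40.2% in TPM or FPKM, so the split between directions depends on scaling. Against 1.5-fold only 4 of the listed genes remained higher and 7 lower, so most smaller changes named below lost their call there. *ITGB5*, *TFPI*, *VLDLR* and *ZFP36L2* also lost theirs in log2(TPM + 1) with no filter.

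**Figure D4:**
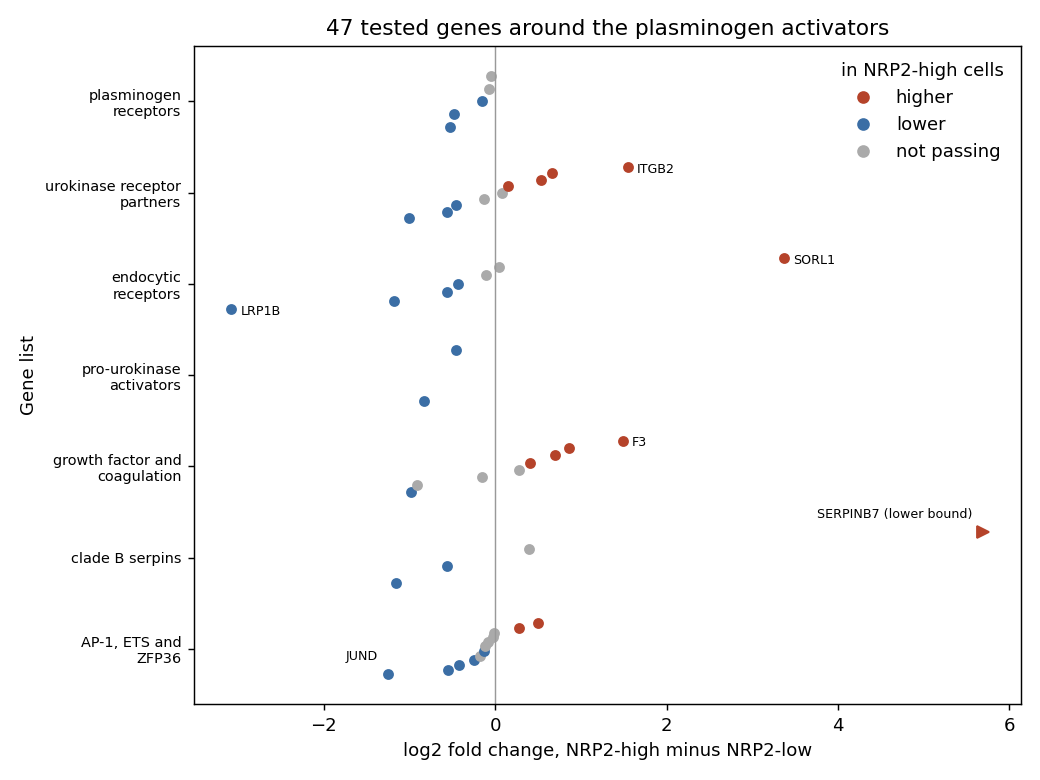
Log2 fold change of NRP2-high over NRP2-low cells (x axis) of the 47 tested genes, grouped by list (y axis) and coloured by call. *SORL1* and *LRP1B* lie at opposite ends of the endocytic receptors, and the triangle of *SERPINB7* is a lower bound because its NRP2-low libraries were at 0.

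Plasminogen receptors, which hold plasminogen at the cell surface, were lower or did not pass. Of 5 tested, 3 were lower and 2 did not pass, with a median of -0.15. The 60% called was near the 56.5% of all tested genes, so the calls do not set this list apart. *ANXA2* and *S100A10* encode the subunits of the annexin A2 complex, which binds plasminogen and tissue-type activator. *ANXA2* fell by 0.53 on the log2 scale, with 33830 and 41151 counts in NRP2-high cells against 56970 and 53606 in NRP2-low cells. *S100A10* fell by 0.49 (adjusted p = 8.46e-06 from edgeR). The groups overlapped for neither gene, as for 78.2% of all tested genes, so this does not set them apart. *HMGB1* had a log2 fold change of -0.15 whose call went when either NRP2-low library was removed, in DESeq2, with RLE size factors and against 1.5-fold.

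Binding partners of the urokinase receptor moved in both directions, with 4 higher, 3 lower and 2 not passing of 9 tested, and a median of 0.08. The share called was 77.8%, against 56.5% of all tested genes. The integrin subunit *ITGA3*, which pairs with the product of *ITGB1* and binds the receptor, had 3498 and 3301 counts in NRP2-high cells against 7137 and 6862 in NRP2-low cells, which gave a log2 fold change of -1.004. *ITGB1* itself rose by 0.67 and *ITGB5* by 0.53, and *EGFR*, which signals together with the receptor, fell by 0.57 (adjusted p = 2.48e-06 from edgeR). Vitronectin (*VTN*), the matrix ligand of the receptor, had 2 and 3 counts in NRP2-high cells against 0 and 2 in NRP2-low cells and was not tested.

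Endocytic receptors clear complexes of activator and inhibitor. The list used here also holds *LRPAP1*, which is not such a receptor and did not pass, at 0.05. Of 7 tested genes of the list, 1 was higher, 4 were lower and 2 did not pass, around a median of -0.44. That made 71.4% called, against 56.5% of all tested genes. *SORL1*, a sorting receptor that binds urokinase complexes, had 191 and 195 counts in NRP2-high cells against 22 and 16 in NRP2-low cells, which gave a log2 fold change of 3.37 (standard error 0.20). *LRP1B* had 6 and 8 counts in NRP2-high cells against 66 and 57 in NRP2-low cells, with a log2 fold change of -3.08 (standard error 0.32). On the log2(FPKM + 1) scale, which understates the change of low genes, *SORL1* was at 0.52, *LRP1B* at -0.22 and *VLDLR* at -0.35. *LRP1*, the best studied clearance receptor, did not pass, at -0.11 with 503 and 481 counts in NRP2-high cells against 534 and 552 in NRP2-low cells. *MRC2*, a collagen receptor that associates with the urokinase receptor, fell by 0.56, *LRP8* by 0.44 and *VLDLR* by 1.18.

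Of the proteases that can activate the urokinase precursor, both tested genes were lower, as were 27.7% of all tested genes, and their median was -0.64. Cathepsin L (*CTSL*) fell by 0.83 and cathepsin B (*CTSB*) by 0.45 on the log2 scale, with 7382 and 7321 counts of *CTSL* in NRP2-high cells against 13978 and 12814 in NRP2-low cells. The surface proteases *ST14* and *HPN* had at most 2 counts in any library. Among growth factor and coagulation genes, 4 of 8 tested were higher, 1 lower and 3 did not pass, with a median of 0.34. Their share called was 62.5%, near the 56.5% of all tested genes. Tissue factor (*F3*), which starts coagulation, had 1210 and 1443 counts in NRP2-high cells against 493 and 474 in NRP2-low cells, which gave a log2 fold change of 1.49 (adjusted p = 6.53e-08 from edgeR). Its inhibitor *TFPI* rose by 0.41 and the related *TFPI2*, which inhibits plasmin, by 0.70, while *PROCR*, the endothelial protein C receptor gene, fell by 0.98. *PDGFC*, whose product is activated by tissue-type activator, did not pass at -0.16.

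AP-1 and ETS factors and the ZFP36 proteins, known to act on activator and inhibitor genes or their mRNAs, had 2 higher, 5 lower and 5 not passing of 12 tested, with a median of -0.12. The 58.3% called was near the 56.5% of all tested genes. *JUND* had 595 and 563 counts in NRP2-high cells against 1409 and 1407 in NRP2-low cells, which gave a log2 fold change of -1.24 (standard error 0.08). *FOSL2* fell by 0.42. *ETS2* rose by 0.50 and *ZFP36L2*, which promotes mRNA decay, by 0.28. The call of *ZFP36L2* was lost in TPM, and those of *ETS2*, *FOSL2* and *ZFP36L2* were lost against 1.5-fold. *FOS* fell by 0.55 and *FOSL1* by 0.25, but both calls were lost in DESeq2 and against 1.5-fold. *JUN*, at -0.01, *JUNB*, at -0.08, *FOSB*, at -0.17, and *ZFP36*, at -0.02, did not pass.

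**Figure D5:**
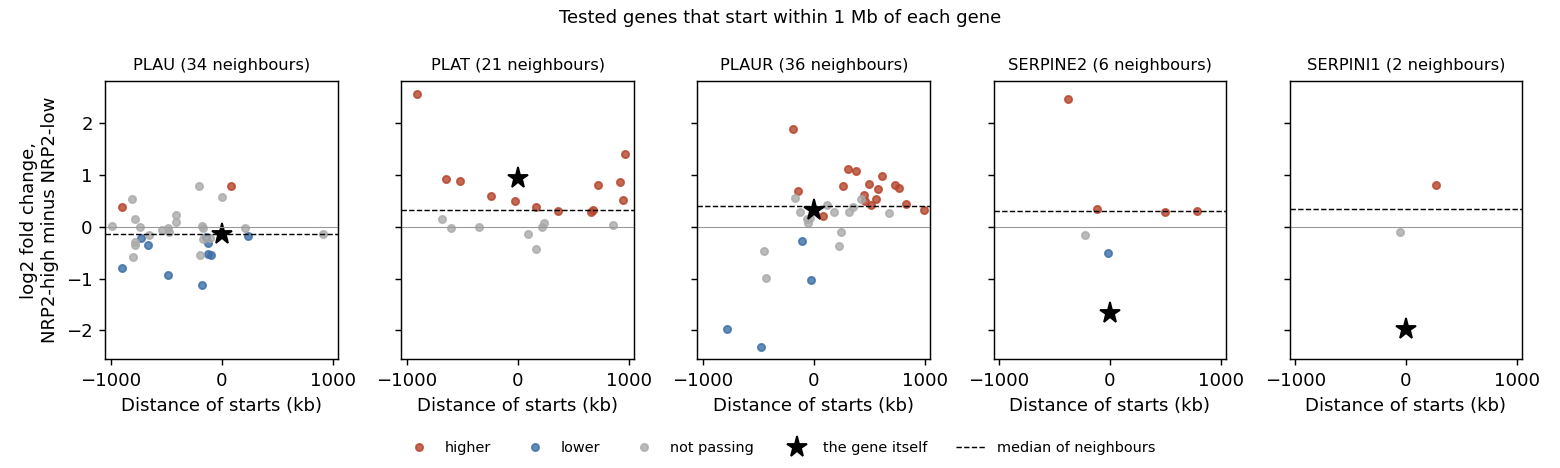
Log2 fold change of NRP2-high over NRP2-low cells (y axis) of every tested gene that starts within 1 Mb of each gene, by distance between starts in kb (x axis). The star is the gene itself and the dashed line the median of its neighbours: *PLAU* and *PLAUR* lie near that line, and *SERPINE2* and *SERPINI1* far below it.

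*PLAU* and *PLAUR* lay close to the median of the genes around them, and *SERPINE2* and *SERPINI1* did not. The 34 tested genes that start within 1 Mb of *PLAU* had a median log2 fold change of -0.14, with 2 higher, 10 lower and 22 not passing, and *PLAU* was also at -0.14. The 36 neighbours of *PLAUR* had a median of 0.40, with 17 higher and 4 lower, and *PLAUR* was at 0.33. Around *PLAT*, 13 of 21 neighbours were higher and none lower, with a median of 0.33 against 0.94 for *PLAT* itself. The 6 neighbours of *SERPINE2* had a median of 0.30, with 4 higher and 1 lower, against -1.67 for *SERPINE2*. Next to *SERPINI1* only 2 genes were tested, *PDCD10* at -0.10 and *GOLIM4* at 0.81. Over their whole chromosomes the medians were 0.03 for that of *PLAU*, 0.13 for that of *PLAUR*, 0.21 for that of *PLAT*, -0.04 for that of *SERPINE2* and 0.13 for that of *SERPINI1*. The differences between each gene and its neighbours were not tested.

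The genes whose pattern over the 4 libraries was most like each gene were found by the Euclidean distance of centred log2 CPM among tested genes of like mean level. Nearest to *PLAT* were *TMEM106B*, *PI4KA* and *C1orf21* (distances 0.0248, 0.0359 and 0.0404 log2 units), and nearest to *SERPINE2* were *HMGA1* (0.0645), *LRRC75A-AS1* (0.237) and *MT2A* (0.313). *HMGA1* had 77.2 and 82.5 CPM in NRP2-high cells against 242 and 257 CPM in NRP2-low cells. Nearest to *SERPINI1* were *CARMIL2* (0.0801), *CHRNB1* (0.0835) and *MAPK8IP2* (0.0979), to *PLAU* *DDX56*, *POLR2B* and *AKAP11* (0.0159 to 0.0221), and to *PLAUR* *C6orf203*, *ANKRD36* and *MIR100HG* (0.0444 to 0.0458). With 4 libraries in 2 groups such a distance reflects little more than the fold change and the level.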

How the data were processed

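The members and gene lists were chosen with earlier results of these data known. Counts are fragments per gene, which the authors obtained by aligning paired-end reads of stranded polyA libraries to hg38 with STAR 2.5.3a and counting fragments of mapping quality above 20 with featureCounts 1.5.2. The annotation release is not given in the sources used here. The TPM values were deposited as counts per gene length scaled to a common sum, and the FPKM values were deposited as counts per length and library total. Here counts were filtered with filterByExpr, scaled by TMM and tested with the quasi-likelihood F test of edgeR 4.0.16 (R 4.3.3) across all tested genes, with no covariate. Each standard error was obtained by dividing the log2 fold change by root F. SD are over 2 libraries. The code was tested on simulated data. Alternatives were DESeq2 1.42.0, limma-voom (limma 3.58.1), RLE factors, other filters, abundant genes removed, blocking on replicate number, omission of single libraries, limma on log2 TPM (pseudocounts 1 and 0.1) or FPKM (1), an adjusted p of 0.01 and a test against 1.5-fold. Named genes were the 6 members, up to 4 passing genes with the smallest adjusted p of each list, every detected further inhibitor listed, and the 3 most alike genes of each passing member (mean log2 CPM within 1, clone and LINC names left out); other genes named were chosen after their values were seen. Promoter windows are from RefSeq (GRCh38.p14). Those of 5 of the 6 genes were used and *PLAT* was left out, and positions are those of the count table. One gene of the pathway is not reported here.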

Additional observations from a re-analysis of the deposited data

How the results depend on the processing

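*PLAT*, *SERPINE2* and *SERPINI1* kept direction and call in all 16 alternatives. The call of *PLAU* was lost in DESeq2 (-0.13), with no filter on counts (-0.13), in log2(TPM + 1) with no filter (-0.29) and against 1.5-fold (-0.14), and leaving out 1 library gave -0.15 to -0.12. That of *PLAUR* was lost in DESeq2 (0.34), in log2(TPM + 1) with and without a filter (0.17 in each), log2(TPM + 0.1) (0.18), log2(FPKM + 1) (0.19) and against 1.5-fold (0.33), and leaving out 1 library gave 0.25 to 0.42. Of the 2 higher members, 1 remained in each of these settings for *PLAUR* and at an adjusted p of 0.01, and 1 to 2 without 1 library. Higher genes of the lists numbered 6 in log2(TPM + 1) with no filter and 4 against 1.5-fold, and lower ones 7 against 1.5-fold. Over all genes, 4354 were higher and 4175 lower; higher ones numbered 2594 in log2(TPM + 1), 2556 in log2(TPM + 0.1), 1760 in log2(TPM + 1) with no filter and 1441 against 1.5-fold, which left 1364 lower. The cause was not tested. With the replicate number as a block, 2 members were higher and 3 lower, and 4509 genes were higher and 4371 lower. Same-numbered deviations had a correlation of -0.01. It rests on a single difference within each population, so it cannot decide whether same-numbered libraries share an origin.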

Other observations

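*SERPINB2* lies in a cluster of clade B serpin genes on chromosome 18 whose tested members moved in opposite directions. *SERPINB7*, upstream of it, had 63 and 88 counts in NRP2-high libraries and none in NRP2-low ones. Taking 3 counts as the ceiling for the pooled NRP2-low group put it at least 51.6-fold higher. That bound does not allow for error in the NRP2-high counts or for spread between libraries. *SERPINB8*, downstream of it, had 124 and 152 counts in NRP2-high cells against 317 and 316 in NRP2-low cells (log2 fold change -1.16, adjusted p = 1.30e-05 from edgeR). *SERPINB5* and *SERPINB10* had at most 7 counts in any library. Elsewhere, *SERPINB6* fell by 0.56 on the log2 scale and *SERPINB1* did not pass at 0.39. Of the 4 clade B genes tested, the calls were 1 higher, 2 lower and 1 not passing, around a median of -0.08, also with *SERPINB7* at its bound. That made 75% called, against 56.5% of all tested genes. With only 4 genes, and *SERPINB7* past the count filter through its NRP2-high libraries alone, this share does not set the list apart.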
